A study of Mus musculus with 65 samples.

Results

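The hotspots described here were 340 strong meiotic recombination hotspots of the mouse autosomes at which the break protein MEI4 was called in none of 5 genotypes. They were chosen by measured values. A hotspot is a region in the wild-type list of DMC1, the recombinase that coats single-stranded DNA at meiotic breaks, and a strong one had a deposited DMC1 value of 437 or more. Of 13808 wild-type hotspots, 13314 lay on chromosomes 1 to 19, and 3294 of those were strong. The 340 hotspots that shared no base with a peak in any of the 5 MEI4 lists made up 10.3% of the strong autosomal hotspots and 2.55% of all autosomal hotspots. They are called MEI4-negative hotspots below, which means only that no MEI4 peak was listed there. The other 2954, called MEI4 hotspots, overlapped a MEI4 peak in at least 1 list and served as the comparison.

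The series mapped chromosome and break proteins by chromatin immunoprecipitation and sequencing in whole testes of mouse pups. According to the protocols in the labels, feeding with WIN 18,466, which blocks retinoic acid synthesis, started 1.5 days after birth and lasted 7 to 10 days. One retinoic acid injection followed, and testes were collected 8 days later. At that time 80 to 95% of the cells were said to be leptotene and zygotene spermatocytes, so other testis cells were present, and no measurement in the files tells the cell types apart. Tissue was fixed in 4% formaldehyde for 15 minutes, and DMC1 libraries had an added kinetic enrichment of single-stranded DNA. The wild type was C57BL/6JCrl, the strain given for every group used here, and the mutants carried B6;129P2-Prdm9tm1Ymat/J (Prdm9KO), Spo11tm1Mjn (Spo11KO), Mei4tm1Bdm (Mei4KO), Iho1tm1.2Atot (Iho1KO) or Hormad1tm1.2Atot (Hormad1KO). For the lists used here, MEI4 was mapped in the wild type, Prdm9KO, Spo11KO, Iho1KO and Hormad1KO. The series also has MEI4 samples of Mei4KO, B6-Tg(YF) and RJ2, for which no list was used. IHO1 was mapped in the wild type, Prdm9KO, Spo11KO, Mei4KO and Hormad1KO, and HORMAD1 in the wild type, Prdm9KO, Spo11KO, Mei4KO and Iho1KO. SYCP3 was mapped in all 6 genotypes, DMC1 in the wild type and Hormad1KO, and CTCF in the wild type for the list used here.

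Meiotic recombination starts when SPO11 cuts DNA together with partner proteins, among them MEI4 and IHO1. In mice the places are set by PRDM9, a zinc finger protein that methylates histones where it binds. The cuts are made on chromatin loops while the break proteins sit on the chromosome axis, which holds HORMAD1 and SYCP3. IHO1 binds HORMAD1 and helps to bring MEI4 to the axis. CTCF is an architectural protein that anchors chromatin loops. Mouse autosomes are acrocentric, so the low-coordinate end of each is the end near the centromere.

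Each protein and genotype had 1 peak list, so no value below has a replicate check, and SYCP3 in Prdm9KO, in Spo11KO and in Iho1KO came from 1 sample each. The other groups used had 2 samples. The sequencing depth of the lists is unknown. Intervals are 95% Wilson intervals, or Newcombe intervals for differences, cover counting error only, and treat hotspots as independent. Lists of MEI4, IHO1, HORMAD1 and SYCP3 hold positions and no strength, so a site missing from a list may carry signal under the unknown threshold.

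Of the MEI4-negative hotspots on the 18 autosomes searched, 7 overlapped a promoter window of the RefSeq table for GRCm38.p6 (300 bases around a gene start), and 3 of these 7 also carried SYCP3 peaks in knockouts. These 3 are printed, because a DMC1 hotspot, an axis protein peak and a gene start coincide there, and were chosen after their values were seen. The first is the stretch between the divergent starts of Dbf4, the partner of a replication kinase, and Slc25a40, a mitochondrial carrier, at chr5:8422717-8422837 on the plus strand. The second is the 250 bases before the start of Rsbn1l at chr5:20951823-20952072, minus strand. The third is the 250 bases before the start of Dnajc9, which encodes a co-chaperone, at chr14:20388911-20389160, minus strand. Capitals mark each CG dinucleotide, the same on both strands.
Dbf4-Slc25a40: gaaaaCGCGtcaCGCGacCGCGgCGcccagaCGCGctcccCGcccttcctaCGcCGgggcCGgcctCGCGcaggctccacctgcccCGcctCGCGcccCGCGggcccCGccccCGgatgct
Rsbn1l: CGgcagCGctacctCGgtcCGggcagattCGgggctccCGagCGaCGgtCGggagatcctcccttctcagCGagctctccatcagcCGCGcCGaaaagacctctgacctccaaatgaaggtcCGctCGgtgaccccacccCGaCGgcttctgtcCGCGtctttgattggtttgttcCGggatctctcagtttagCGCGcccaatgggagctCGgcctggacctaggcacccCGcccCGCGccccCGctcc
Dnajc9: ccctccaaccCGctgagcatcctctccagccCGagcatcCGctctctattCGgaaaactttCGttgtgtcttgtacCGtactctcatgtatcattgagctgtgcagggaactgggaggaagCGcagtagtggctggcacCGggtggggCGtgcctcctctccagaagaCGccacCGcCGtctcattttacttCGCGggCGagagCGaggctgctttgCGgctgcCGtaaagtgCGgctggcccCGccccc
All 3 stretches were rich in CG. The 121 bases between Dbf4 and Slc25a40 held 22 CG at 81.0% G and C, the Rsbn1l stretch held 27 CG and the Dnajc9 stretch 20. The median over the 32851 windows of 250 bases before a gene start in the same table was 6 CG, 92.1% of these windows had at least 1, and the Rsbn1l stretch had more than 91.4% of them. The centre of the hotspot at Dbf4 and Slc25a40 lay 48 bp from the start of Dbf4 and 74 bp from that of Slc25a40, and that of the hotspot at Dnajc9 216 bp from its start. The hotspot at Rsbn1l was centred 550 bp from the Rsbn1l start and 283 bp from the start of the long non-coding RNA A630072M18Rik. The DMC1 values of these hotspots were 469.5, 466.5 and 450.5, near the lower bound of the set, and none of the 3 was in the Hormad1KO DMC1 list.

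The wild-type DMC1 value chose the hotspots and is given as a description. It is the authors' own value per hotspot, with no unit named, and ranks hotspots within its list. Among MEI4-negative hotspots it ran from 437 to 7537 with a median of 624.75 and quartiles of 505.5 and 795.4, against a median of 1106.5 and a highest value of 20822.5 for MEI4 hotspots. MEI4-negative hotspots made up 27.3% of the lowest 10% of strong hotspots (437 to 509) and 1.52% of the highest 10% (3514 to 20822.5), with 5.78% of those from 1022 to 1257. Values of 1000 or more were held by 51 of the 340 hotspots and values of 2000 or more by 14. Just inside the threshold lay 3 hotspots with a value of 437, at chr5:47523065-47525230, chr2:13747429-13749387 and chr17:86160406-86162333. Just outside it, the nearest autosomal hotspots without MEI4 were chr10:83245516-83248190 (436.5), chr10:102032817-102035114 (436) and chr10:107336694-107338465 (436). Because the 2 groups differ in value by construction, MEI4 hotspots were weighted to the same 5 classes of DMC1 value as the 340 hotspots. Each class held equal numbers of MEI4-negative hotspots. A share or median of MEI4 hotspots that was weighted in this way is called matched below. Differences in percentage points use matched shares, except that from hotspots below the threshold. Other values of MEI4 hotspots are not weighted. The highest class is open at the top, where the median value was 1163.5 for MEI4-negative and 1715 for MEI4 hotspots. Under finer classes the wild-type differences for HORMAD1, IHO1 and SYCP3 were smaller, with values given near the end. Hotspot widths were close, with medians of 1925 bp (order-statistic 95% interval 1910 to 1952) and a matched 1958 bp.

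The 10 strongest MEI4-negative hotspots ranked between 91 and 538 of the 13808 wild-type hotspots. The strongest, at chr6:76140643-76142546, had a value of 7537 and lay 739 kb from the nearest protein-coding gene, Ctnna2, a catenin. The second, at chr1:19132895-19135003 with a value of 5468.5, lay in Tfap2d, a transcription factor gene, and the third, at chr5:71852273-71854198 with 4819, in Gabrb1, a subunit of a GABA receptor. Pex3, a peroxisome gene, held the hotspot at chr10:13538894-13541397 (3712.5), and Hus1, a part of a DNA damage checkpoint clamp, the one at chr11:9008866-9010685 (3465). Galnt7, a glycosyltransferase gene, held the one at chr8:57523223-57525044 (2953). The other 4 lay outside genes. They were chr2:7983932-7986014 (3567.5, 588 kb from Celf2), chr1:82053869-82055891 (3333.5, 177 kb from Irs1), chr2:42851227-42853544 (2806, 198 kb from Lrp1b) and chr2:23438369-23440174 (2698, 36.4 kb from Nxph2). The gene table gives the ends of genes but no exons, so exonic and intronic positions are not told apart here.

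MEI4 peaks were mostly far away, not just beyond the edge of the hotspot. The nearest MEI4 peak of any list lay at a median of 296 kb from a MEI4-negative hotspot, with a range of 0.416 to 4381 kb. It lay within 1 kb of 1 hotspot, within 5 kb of 4 and within 100 kb of 81. These distances are a description, as no baseline distance from other positions was computed. The 5 nearest outside chromosome 18 were chr2:80274981-80276172, 0.416 kb from a wild-type MEI4 peak, then chr2:50739956-50741755 (2.13 kb), chr4:20203887-20205567 (3.26 kb), chr13:111538720-111540543 (4.48 kb) and chr19:30665192-30667390 (7.18 kb, within Prkg1, a kinase gene), each of these 4 next to a Spo11KO peak. Only the hotspot on chromosome 13 among these 5 was in the Hormad1KO DMC1 list, with a value of 50. The MEI4 hotspots divided by the number of MEI4 lists that held them into 420 with exactly 1 list, 543 with 2, 921 with 3 and 1070 with 4. None was in the Prdm9KO list of MEI4. Of the 420 with a single list, 312 had MEI4 in Spo11KO, 92 in Hormad1KO, 8 in the wild type and 8 in Iho1KO.

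DMC1 in mice without HORMAD1 gave a list that the choice of the hotspots did not use, but the choice did use MEI4 in the same genotype. Of the 2954 MEI4 hotspots, 2528 were in the Hormad1KO MEI4 list. No comparison was made that set this MEI4 list aside. HORMAD1 is the axis protein to which IHO1 binds, and the Hormad1KO list of DMC1 holds 5002 hotspots. Fewer MEI4-negative hotspots were found there than MEI4 hotspots of like wild-type value. Of the 340, 186 were in the list (54.7%, 49.4 to 59.9), where 87.2% of all strong autosomal hotspots were. The matched share of MEI4 hotspots was 83.9%, a difference of -29.2 percentage points (-34.8 to -23.5). The gap was narrowest in the highest class of value. From the lowest to the highest class it was 38.2%, 50%, 47.1%, 50% and 88.2% of 68 MEI4-negative hotspots each, against 77.4%, 80.1%, 81.9%, 83.0% and 96.9% of MEI4 hotspots. Of the 51 MEI4-negative hotspots with a wild-type value of 1000 or more, 49 were found.

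**Figure D1:**
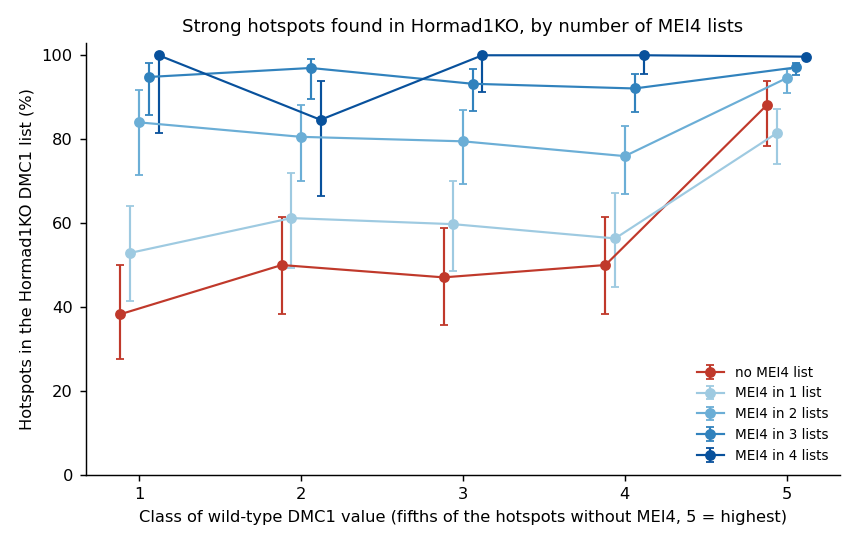
Share of strong autosomal hotspots found in the Hormad1KO DMC1 list (y axis, percent, with 95% Wilson intervals) in 5 classes of wild-type DMC1 value (x axis), for hotspots in no MEI4 list and in exactly 1 to 4 MEI4 lists. The line for hotspots in no list runs from 38.2% to 88.2%, and those in 3 lists stay above 92% in every class.

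MEI4 hotspots held by fewer lists came closer to the MEI4-negative ones. The matched share found in Hormad1KO was 62.3% of hotspots with MEI4 in 1 list, 82.9% with 2, 94.8% with 3 and 96.9% with 4. Against hotspots with a single list, the MEI4-negative share was still lower, by -7.62 points (-14.6 to -0.495). In the highest class of value the MEI4-negative share (88.2%, 78.5 to 93.9) and that of single-list hotspots (81.5%, 74.1 to 87.1) had overlapping intervals. Weaker hotspots with MEI4 offered a second view. Of 843 autosomal hotspots with MEI4 and a wild-type value of 218.5 to 436.5, all below the threshold, 65.7% (62.4 to 68.8) were found in Hormad1KO, so MEI4-negative hotspots with higher wild-type values were found less often, by -11.01 points (-17.2 to -4.86). Of 856 hotspots in that range without MEI4, 29.6% (26.6 to 32.7) were found.

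The Hormad1KO values of the hotspots found were lower than those of MEI4 hotspots as a whole, and close to those of hotspots with MEI4 in a single list. Among the 186 MEI4-negative hotspots found, the Hormad1KO value ran from 12.5 to 1199.5 with a median of 43.75 (40 to 51), against a matched median of 93.5 for the MEI4 hotspots found and a median of 72 for the whole list. By class of wild-type value the medians of MEI4-negative hotspots were 31.75, 38.25, 43.25, 33 and 75.75, and those of MEI4 hotspots 60, 66.5, 74.25, 78 and 207. The hotspots found with MEI4 in a single list had an unweighted median of 42.75 (38.5 to 47.5). In the highest class it was 52 (45.5 to 61.5), where the 75.75 of the MEI4-negative hotspots (66.5 to 89.5) was higher. Of the 186, 53 had a Hormad1KO value above the median of the list and 30 a value of 100 or more. The 10 strongest MEI4-negative hotspots were all found. Their Hormad1KO values, in the order of wild-type value, were 279.5, 275, 678, 129, 166.5, 122.5, 557.5, 125, 129.5 and 73.5, each above the list's median. No MEI4-negative hotspot as strong as those 10 was missing from the Hormad1KO list. The strongest missing ones were chr16:78080967-78082468 (wild-type value 1016.5), chr10:20816504-20818153 (1009), chr1:9942095-9944119 (985), chr2:8061611-8063700 (961.5) and chr10:35623378-35625427 (929).

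**Figure D2:**
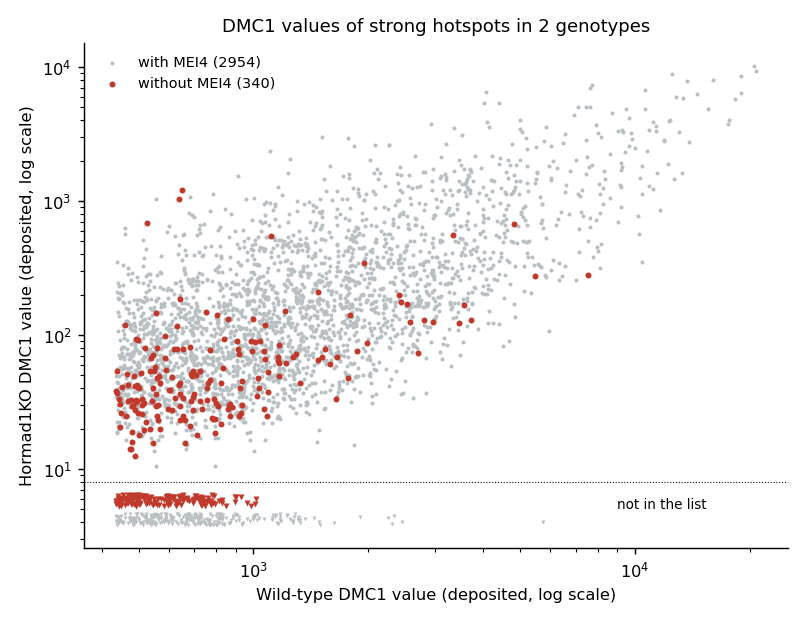
Deposited DMC1 value of each strong autosomal hotspot in the wild type (x axis) and in Hormad1KO (y axis), both on log scales, for 340 hotspots without (red) and 2954 with (grey) a MEI4 call. Triangles under the dotted line are hotspots not in the Hormad1KO list, with height drawn only to separate them, and the red points have a median Hormad1KO value of 43.75, with 3 points at wild-type values of 527 to 651.5 that exceed their wild-type value.

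Of the MEI4-negative hotspots, 3 stood apart by a Hormad1KO value above their wild-type value, and they were picked out after their values were seen. No common scale of the 2 lists is stated, so the ranks within each list are given beside the values. The hotspot at chr17:15544272-15546058, within the Prdm9 gene itself, had a wild-type value of 651.5 (rank 2602) and a Hormad1KO value of 1199.5 (rank 206). The hotspot at chr2:98666071-98668012 had values of 638.5 (rank 2646) and 1039.5 (rank 248). Its neighbour at chr2:98661931-98663501 had 527 (rank 3034) and 680 (rank 381). Neither of the pair on chromosome 2 lay in an annotated gene, and their nearest CTCF peaks were 568 and 573 kb away. Repeat content, read mappability and any filtering of the peak lists were not examined at these hotspots.

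IHO1, the partner that links MEI4 to HORMAD1, was rarely called at the MEI4-negative hotspots. A peak in at least 1 of the 5 IHO1 lists lay at 12 of 340 (3.53%, 2.03 to 6.07), where 63.1% of all strong autosomal hotspots had one. The matched share of MEI4 hotspots was 53.2%, a difference of -49.7 points (-52.6 to -46.2). Hotspots with MEI4 in 1, 2, 3 and 4 lists had matched shares of 26.4%, 35.8%, 66.4% and 83.9%. The difference was called in 3 of the 5 lists. In Spo11KO, where no breaks form, 7 MEI4-negative hotspots (2.06%) had IHO1 against a matched 41.6% and 51.4% of all strong hotspots. In Hormad1KO 3 (0.882%) had it against a matched 32.8% and 45.2% of all strong hotspots. In the wild type 2 (0.588%) had it against a matched 6.01% and 15.1% of all. In Prdm9KO and Mei4KO IHO1 lay at 0 of 340, which allows a share of up to 0.882%, and at 0.0911% and 0.395% of all strong hotspots, and neither difference was called. Here and below the limit for a count of 0 is 3 counts of the total. Against hotspots with MEI4 in a single list, the wild-type difference was -1.61 points (-4.19 to 0.12) and was not called. Single-list hotspots also rarely carried IHO1 in Hormad1KO, at a matched 3.30%. This left a much narrower gap of -2.42 points (-5.27 to -0.467), still called. The Spo11KO gap stayed wide, at -21.1 points (-25.8 to -17.0) from a matched 23.1%.

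The axis proteins were also called less often. HORMAD1 had a peak in at least 1 of 5 lists at 11 of 340 hotspots (3.24%, 1.82 to 5.70), against a matched 15.5% and 27.5% of all strong hotspots, a difference of -12.2 points (-14.4 to -9.50). In the wild type it lay at 6 (1.76%) against a matched 6.79% and 17.2% of all. In Spo11KO it lay at 2 (0.588%) against a matched 11% and 18.7% of all. In Iho1KO it lay at 1 (0.294%) against a matched 2.69% and 3.13% of all. The intervals of these 3 differences excluded 0. Against hotspots with MEI4 in a single list the difference for any HORMAD1 list was -3.57 points (-7.24 to -0.599), and those in the wild type (-1.15 points) and Iho1KO (-1 point) were not called. The Iho1KO difference was also not called among the stronger 50% of the MEI4-negative hotspots (-1.74 points). HORMAD1 in Mei4KO, the longest HORMAD1 list, lay at 5 of the 340 (1.47%) against a matched 2.09% and 1.67% of all; this difference, -0.621 points (-1.99 to 1.37), was not called. In Prdm9KO it lay at none, and at 0.152% of all strong hotspots.

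SYCP3, a core protein of the axis, had a peak in at least 1 of 6 lists at 15 of 340 (4.41%, 2.69 to 7.15), against a matched 18.4% and 34.5% of all, a difference of -13.9 points (-16.3 to -10.9). Against hotspots with MEI4 in a single list the difference was -1.72 points (-5.24 to 1.37) and was not called. The wild-type list held 9 MEI4-negative hotspots (2.65%) against a matched 12.5% and 29.3% of all. The Spo11KO list held 4 (1.18%) against 9.61% and 16% of all. The Hormad1KO list held 0, which allows up to 0.882%, against 2.47% and 4.89% of all. The intervals of these 3 differences excluded 0, but against single-list hotspots those in the wild type (-2.35 points) and Spo11KO (-0.866 points) were not called. In Iho1KO SYCP3 lay at 5 (1.47%) against a matched 2.85% and 4.07% of all, in Mei4KO at 2 (0.588%) against 0.621% and 0.546% of all, and in Prdm9KO at 3 (0.882%) against 0.292% and 0.182% of all, with no difference called in these 3 genotypes. The Iho1KO difference of -1.38 points was called under 4 alternatives, with values from -1.84 to -3.83 points.

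**Figure D3:**
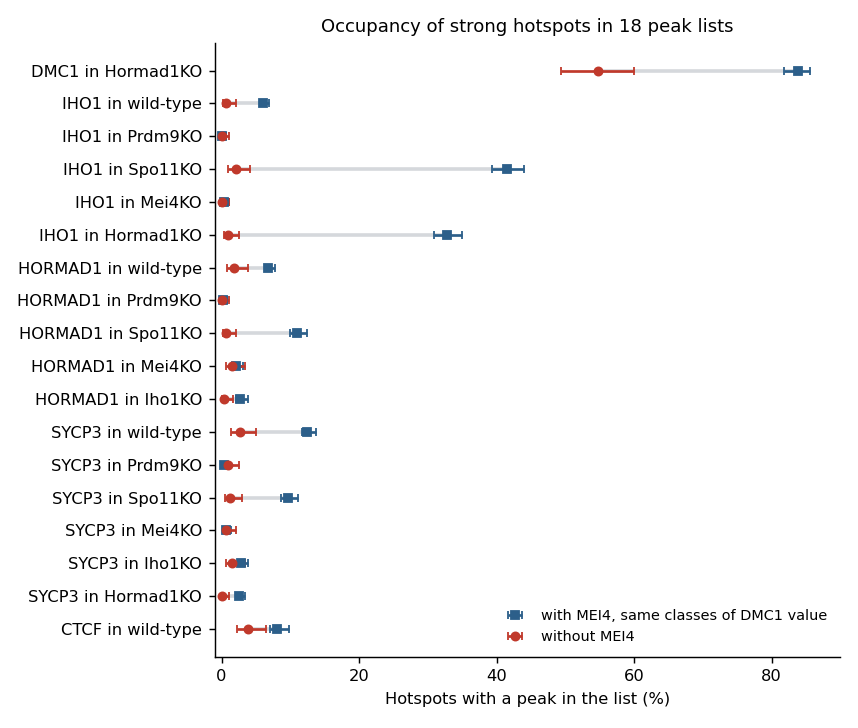
Percent of strong autosomal hotspots with a peak in each of 18 lists (rows), for the 340 hotspots without MEI4 (red circles, 95% Wilson intervals) and for MEI4 hotspots weighted to the same classes of DMC1 value (blue squares, 95% intervals). The widest gaps are IHO1 in Spo11KO (2.06% against 41.6%), IHO1 in Hormad1KO and DMC1 in Hormad1KO.

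Over the 16 IHO1, HORMAD1 and SYCP3 lists together, 27 MEI4-negative hotspots had a peak (7.94%, 5.51 to 11.3). The matched share was 56.0%, and 65.8% of all strong hotspots had one. Of the 27, 17 were in 1 list and 4 in 2. The share in the Hormad1KO DMC1 list was alike with and without such a peak, at 15 of the 27 (55.6%) and 171 of the other 313 (54.6%). These 2 shares were not matched for wild-type value. Of the 27 with a peak, 11 had a value of 1000 or more, and all 11 were in that list. So were 49 of all 51 MEI4-negative hotspots of such value. Of the 14 MEI4-negative hotspots with a DMC1 value of 2000 or more, 8 had a peak in at least 1 of the 16 lists. The share of MEI4 hotspots of such value with a peak was not computed. All 14 were in the Hormad1KO DMC1 list, as were 96.9% of MEI4 hotspots in the highest class of value. HORMAD1 and SYCP3 were both called in the wild type at the hotspots near Ctnna2, in Gabrb1, near Irs1 and in Galnt7, with IHO1 as well in the wild type at Galnt7 and in Hormad1KO near Irs1. IHO1 and SYCP3 were called in the wild type near Nxph2, and IHO1 in Hormad1KO at Pex3 and Hus1. No peak of the 16 lists lay at the hotspots in Tfap2d, near Celf2 or near Lrp1b, which are among the 10 strongest. In all, 11 of the 27 had a peak in the wild type and 16 only in knockouts. Of these 11, 9 (81.8%) were in the Hormad1KO DMC1 list, and of the 16, 6 (37.5%). These shares were not matched for wild-type value. The hotspots near Ctnna2, Irs1 and Nxph2 and in Gabrb1 and Galnt7, all with wild-type peaks, are among the 10 strongest.

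Of the 5 hotspots in the most lists, 4 overlapped protein-coding genes. The hotspot at chr14:20388148-20390105, whose promoter stretch at Dnajc9 is printed above, had a DMC1 value of 450.5 and was in 6 of the 16 lists: IHO1 in Spo11KO, HORMAD1 in the wild type, Spo11KO and Mei4KO, and SYCP3 in Spo11KO and Iho1KO. It also held a CTCF peak. The hotspot at chr1:9942095-9944119, in Mcmdc2, which is needed for meiotic recombination, and Snhg6, a small nucleolar RNA host gene, had a value of 985 and was in 5 lists. These were HORMAD1 in the wild type and SYCP3 in Prdm9KO, Spo11KO, Mei4KO and Iho1KO, and a CTCF peak lay there too. The hotspot between Dbf4 and Slc25a40, at chr5:8421555-8423974, had SYCP3 in those same 4 knockouts and none of the 16 lists' proteins in the wild type. The hotspots at chr1:82053869-82055891 and chr8:57523223-57525044, near Irs1 and in Galnt7, had 3 lists each. Another hotspot with 3 lists and a lower DMC1 value (897) lay in Cntnap5b, at chr1:99860185-99862632, with HORMAD1 in Spo11KO and Iho1KO and SYCP3 in Spo11KO, and was not in the Hormad1KO DMC1 list. Rsbn1l had SYCP3 in Prdm9KO and Iho1KO. SYCP3 in Prdm9KO thus lay at the hotspots of Mcmdc2, Dbf4 and Rsbn1l and at no other of the 340, and none of the 3 was in the Hormad1KO DMC1 list. The hotspot within Prdm9 was in the HORMAD1 list of Mei4KO and in no other of the 16.

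CTCF was called at fewer MEI4-negative hotspots, and they lay in regions with fewer CTCF peaks and genes. A CTCF peak overlapped 13 of 340 (3.82%, 2.25 to 6.43) against a matched 8.13% and 7.41% of all strong hotspots, a difference of -4.31 points (-6.57 to -1.46). Where 50% of the narrower interval had to be shared, the difference was -2.47 points and its interval included 0. Of the 13, 5 (38.5%) were in the Hormad1KO DMC1 list, against 198 of the 231 MEI4 hotspots at CTCF peaks (85.7%, not weighted). A peak in at least 1 of the 16 lists lay at 4 of the 13, and at 65.8% of all strong hotspots. The strongest was in Ppm1a, a phosphatase gene, with a value of 2527. Around the hotspots the median number of CTCF peaks within 500 kb was 8 (6 to 9), against a matched 17, and the median distance to the nearest was 47.3 kb (36.4 to 63.3) against a matched 19.8 kb. No CTCF peak lay within 100 kb of 119 hotspots (35.0%), against a matched 13% and 17.2% of all, a difference of 22.0 points (16.7 to 27.4).

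Genes followed the same pattern. The median number of protein-coding genes within 500 kb was 4 (3 to 4) against a matched 7. None lay within 100 kb of 114 hotspots (33.5%), against a matched 14.8% and 18.7% of all strong hotspots. Within the bodies of protein-coding genes lay 148 of the 340 (43.5%), against a matched 57.3% and 55.8% of all strong hotspots, a difference of -13.7 points (-19.4 to -7.87). This was -4.08 points, with an interval that included 0, against hotspots with MEI4 in a single list, and -1.49 points when the classes of value were crossed with 3 classes of the number of CTCF peaks within 500 kb, where the interval (-7.71 to 4.47) also included 0. At gene ends, within 1 kb of either end of a protein-coding gene, lay 20 (5.88%), against a matched 5.84% and 5.53% of all, a difference of 0.0447 points (-2.46 to 3.21). One of these 20 was at Zcwpw1, named here after its values were seen, which encodes a reader of the histone marks that PRDM9 writes (value 492.5). Other DMC1 hotspots were nearly as frequent, with medians of 5 (5 to 6) and a matched 6 within 500 kb.

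MEI4-negative hotspots were shifted toward the centromere ends of the chromosomes. Each chromosome was divided into 5 equal stretches, which from the centromere end on held 123, 81, 56, 36 and 44 of the 340, or 36.2% in the first stretch, against 471, 630, 611, 637 and 605 of the MEI4 hotspots, or 15.9%. These counts were not weighted for DMC1 value. In the first 10 Mb after the 3 Mb that the build leaves without sequence lay 72 (21.2%, 17.2 to 25.8) against a matched 5.89% and 8.14% of all strong hotspots, a difference of 15.3 points (11.05 to 20.03). At the other end, the last 10 Mb held 14 (4.12%) against a matched 8.42% and 6.59% of all, a difference of -4.30 points (-6.65 to -1.37). That difference was -2.77 points among the stronger 50% of the MEI4-negative hotspots and -2.44 points with the CTCF classes above, and both intervals included 0. The excess in the first 10 Mb was 15.5 points with those CTCF classes and 10.1 points (4.5 to 15.3) against hotspots with MEI4 in a single list.

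**Figure D4:**
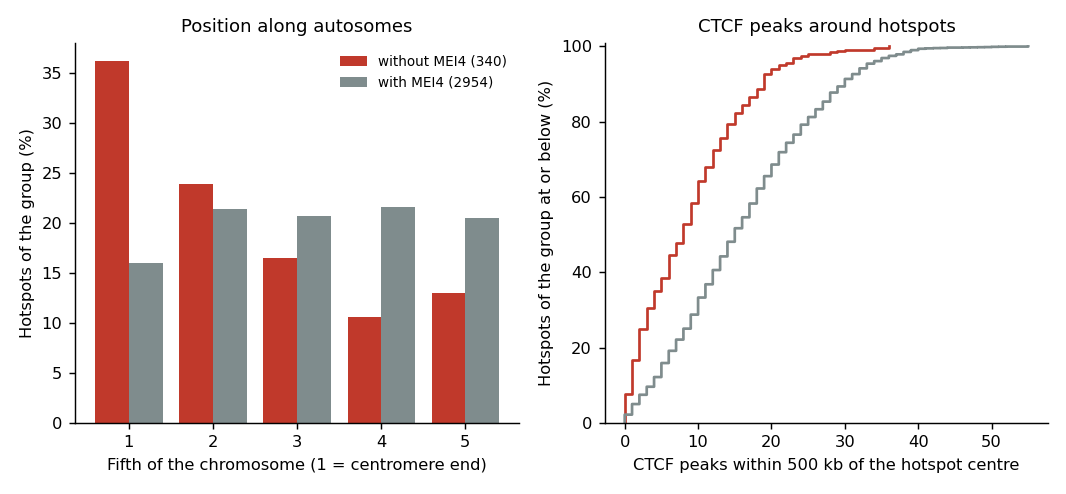
Left, percent of the hotspots of each group (y axis) in each of 5 equal stretches of the autosomes from the centromere end (x axis), for 340 hotspots without and 2954 with MEI4. Right, cumulative percent of hotspots (y axis) by the number of CTCF peaks within 500 kb of the centre (x axis), where the red curve, without MEI4, has its median at 8 and lies to the left of the grey one.

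The hotspots near the centromere ends were found in Hormad1KO less often than the rest of the 340, with intervals of the 2 shares that do not overlap. Of the 72 in the first 10 Mb, 22 were found (30.6%, 21.1 to 42.0), against a matched 69.6% of the 196 MEI4 hotspots there, a difference of -39.1 points (-51.4 to -24.0). In the rest of the chromosomes 164 of 268 were found (61.2%, 55.2 to 66.8), against a matched 84.7%, a difference of -23.5 points (-29.7 to -17.5), and the intervals of the 2 differences overlap. Median wild-type values of the MEI4-negative hotspots were 634.75 in the first 10 Mb and 617.75 elsewhere. The first 10 Mb held MEI4-negative hotspots on 18 of 19 autosomes, with 11 of the 17 strong hotspots there on chromosome 10, 8 of 13 on chromosome 6 and 7 of 13 on chromosome 5.

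Whole chromosomes differed as well. MEI4-negative hotspots made up 18.04% (13.3 to 24.1) of the strong hotspots of chromosome 3, which were 35 of 194, then 16.04% of those of chromosome 10 and 15.8% of those of chromosome 6. On chromosome 8 they were 5 of 156 (3.21%, 1.38 to 7.28), and on chromosome 13 they were 9 of 172 (5.23%). These shares rest on the MEI4 lists that chose the hotspots and are a description.

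**Figure D5:**
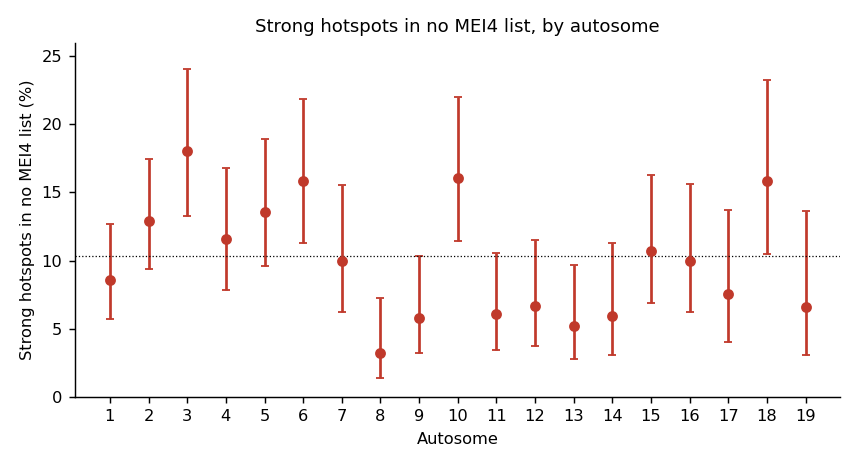
Percent of the strong DMC1 hotspots of each autosome (x axis) that were in no MEI4 list (y axis), with 95% Wilson intervals. The dotted line is the share over all autosomes, 10.3%, and chromosomes 3 (18.04%) and 8 (3.21%) are at the ends of the range.

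Most strong neighbours of MEI4-negative hotspots had MEI4. Their counts are also a description, since they use the MEI4 lists, and were not weighted for DMC1 value. Of the strong neighbours within 1 Mb of a MEI4-negative hotspot, 78.8% had MEI4, against 92.7% of the neighbours of MEI4 hotspots. Of the 340, 204 had a MEI4 hotspot as the next strong hotspot on both sides, or no strong hotspot beyond on a side, 94 stood as 47 pairs and 27 as 9 runs of 3. The longest run was 6 successive strong hotspots over 4.13 Mb at chr5:7824348-11951569, with values from 453 to 845.5, and it takes in the hotspot at Dbf4 and Slc25a40. None of these 6 was in the Hormad1KO DMC1 list. A run of 5 over 2.42 Mb lay at chr10:3213807-5634146, with values from 492 to 930.5 and 1 hotspot in the Hormad1KO list, and a run of 4 at chr10:9223034-10526492, with values from 529.5 to 784 and none. Both lie near the centromere end of chromosome 10. A run of 3 at chr2:7983932-8179495 includes the hotspot of value 3567.5 near Celf2.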

How the data were processed

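Peak lists of 24 groups from mouse testes were used, each attached to 1 sample. The submitters' processing notes name Bowtie2, MACS2 and the build mm10, without versions or roles. Per the series' design text, each protein's signal in its own knockout was subtracted. Pooling of replicates and thresholds are not given in the sources used here. The MEI4, IHO1, HORMAD1 and SYCP3 lists hold positions. The DMC1 lists hold a deposited signal value per hotspot, and the CTCF list a deposited score per peak. Both are the authors' own values and were used only within their own list.

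Intervals were overlapped by at least 1 bp. Shares of hotspots have Wilson 95% intervals. Differences are MEI4-negative minus MEI4 hotspots, the latter weighted over 5 classes of wild-type DMC1 value, with Newcombe intervals combined by squaring and adding, and were called where the interval excluded 0. The difference from hotspots below the threshold was not weighted. Also not weighted were the counts by stretch of a chromosome and of neighbours, the Hormad1KO medians of single-list hotspots and the values on the X chromosome. No p-value was computed, because a group has 1 list and hotspots are not replicates. There were 7 main comparisons and 18 of single lists and added measures, without adjustment. Medians have exact order-statistic intervals. Genes came from RefSeq (GRCm38.p6), matched by position. Alternatives changed the overlap, the distance to MEI4, the classes (10, or 20 as an added choice), the comparison hotspots, the window, gene ends and regions. The 20 classes, the CTCF classes and leaving out the first 10 Mb were chosen after seeing the data, as was the comparison of the first 10 Mb. The members and lists were chosen with earlier results of these data known. Named hotspots are the 10 strongest, the 3 on either side of the threshold, the 5 in most lists, the 5 strongest missing in Hormad1KO and the 5 nearest to a MEI4 peak, with ties in lists broken by DMC1 value. Other hotspots named (at Prdm9, Rsbn1l, Zcwpw1, Ppm1a and Cntnap5b, the pair on chromosome 2, the other hotspots with peaks, and the runs) were chosen after their values were seen. Hotspots on chromosome 18 (20 of the 340) were counted and not named, and promoters were not searched there. The hotspots' own sequences were not used here. The code was tested on simulated data. Python 3.11.15, pandas 2.3.3, numpy 2.4.6, scipy 1.17.1 and matplotlib 3.10.9 were used.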

Additional observations from a re-analysis of the deposited data

Results flagged for a closer look

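SYCP3 in Prdm9KO was the only 1 of the 16 lists of IHO1, HORMAD1 and SYCP3 in which MEI4-negative hotspots had the higher share. It lay at 3 of 340 (0.882%) against a matched 0.292% of MEI4 hotspots, a difference of 0.591 points (-0.346 to 2.28), while the wild-type SYCP3 difference was -9.82 points (-11.6 to -7.40). The difference between the 2 genotypes was not tested. The 3 hotspots are those at Mcmdc2, Dbf4 and Rsbn1l.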

How the results depend on the processing

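Of 84 alternatives to the 7 main differences, 76 kept their direction and their side of the call, 4 lost the call and 4 changed sign. The differences for the Hormad1KO DMC1 list, any IHO1 and any HORMAD1 kept both in all 12 alternatives each. Some alternatives could change little or nothing. The 50% overlap and the 1 kb window left the Hormad1KO DMC1 difference as it was. Overlap does not enter the position in the last 10 Mb, and requiring no MEI4 peak within 1 kb removed 1 hotspot. Against hotspots with MEI4 in exactly 1 list, any SYCP3 moved to -1.72 points. With an overlap of at least 50%, CTCF moved to -2.47. In the last 10 Mb, the upper 50% of the MEI4-negative hotspots by value gave -2.77 and the classes of value and CTCF peaks -2.44. The gene end difference, never called, was -1.13 against hotspots with wild-type MEI4, -0.916 for the upper 50% by value, -1.03 without the first 10 Mb and -1.91 with all annotated genes. Of 214 alternatives for single lists and added measures, 196 kept direction and call, 8 lost the call, 4 gained it (all SYCP3 in Iho1KO) and 6 changed sign. Of the 8 lost calls, 6 came against single-list hotspots. With 10 and 20 classes of value the wild-type differences were smaller and still called. HORMAD1 moved from -5.03 points to -3.11 and -2.50, and IHO1 from -5.42 to -3.76 and -3.19. SYCP3 moved from -9.82 to -7.31 and -6.89. The Hormad1KO DMC1 difference, -29.2, was -29.0 and -28.9 under those classes. Of the sign changes, HORMAD1 in Mei4KO was 0.26 with the CTCF classes, and SYCP3 in Mei4KO was 0.30 against single-list hotspots, 0.29 for the upper 50%, 0.0698 with a 1 kb window, 0.0193 with 20 classes and 0.26 with the CTCF classes; none of these was called. The cause was not tested. No paired analysis was possible because each group has 1 list that carries no replicate. Depth is unknown for all lists.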

Other observations

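The X chromosome, which has no homologue over most of its length in males, was not part of the 340 hotspots. On it, 45 hotspots of value 437 or more had no MEI4 peak, with values from 437.5 to 2195.5, and 113 had one. In the Hormad1KO DMC1 list, 39 of the 45 were found (86.7%, 73.8 to 93.7), with a median Hormad1KO value of 66, and 112 of the 113 (99.1%, 95.2 to 99.8), with a median of 226.25. Their wild-type medians were 708.5 and 1541.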
